A study of Mus musculus with 4 samples.

Results

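Histones are the proteins that DNA is wound around, and their genes were followed here through sorted mouse microglia after dosing with an antibody to TREM2, a microglial lipid receptor. The set was taken by symbol: every gene in the deposited count table whose name begins with Hist1h to Hist4h, H2af, H3f3 or H1f. It held 74 of the 19737 genes in the table, and each of the 74 had at least 1 UMI (1 counted mRNA molecule). Of these, 63 were genes named for the histone clusters (called Hist genes below): 6 for the linker histone H1, 16 for H2A, 16 for H2B, 12 for H3 and 13 for H4, with 51 of the 63 on chromosome 13. Another 10 were variant or stand-alone genes (H1f0, H1fx, H2afj, H2afv, H2afx, H2afy, H2afy2, H2afz, H3f3a and H3f3b), and the last was H3f3aos, an antisense RNA beside H3f3a.

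The animals were 20 mice in 5 groups of 4, and each of 4 pools, barcoded and sequenced together, held 1 mouse of every group. All groups carried a transferrin receptor with a human part (TfRmu/hu), to which the antibody transport vehicle (ATV) binds. WT;TfRmu/hu mice received ATV:ISO (a control antibody) or ATV:4D9. AppSAA;TfRmu/hu mice, homozygous for an App knock-in that makes mutant amyloid from the gene's own promoter, received ATV:ISO, 4D9 (the same TREM2 antibody with no transport vehicle) or ATV:4D9. The single intravenous dose was 10 mg per kg, and cells were taken 1 day later. The AppSAA mice were males of 8 months by the study's records, and 1 WT ATV:ISO mouse was recorded as female among otherwise male mice. For the study's WT;TfRmu/hu mice the records give a range of ages, and the age of those used here is not known, so genotype and age cannot be told apart. The reading of the isotype label as ATV:ISO follows the study's methods, and the sources disagree on whether hippocampus was included and whether CD45 was part of the sort.

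The table held 74758 cells, with 2193 to 6126 cells and 17150296 to 102446549 UMIs per mouse. The median UMI count per cell averaged 7566 in WT ATV:ISO, 9338.5 in AppSAA ATV:ISO, 9741 in AppSAA 4D9, and 15338 and 15523 in the WT and AppSAA mice given ATV:4D9, so depth moved with ATV:4D9; its part in the differences was not tested. In 15 cells a list of markers of another cell type had more UMIs than the microglial list. Summed marker levels moved with ATV:4D9 too: 6 microglial genes had a median of 21560 CPM in WT ATV:ISO and 14290 CPM in WT ATV:4D9 (15660 and 12240 CPM in AppSAA mice), and 3 endothelial genes stood at 18.2 to 24.4 against 9.49 to 12.9 CPM in WT and 37.5 to 52.2 against 13.2 to 25.9 CPM in AppSAA mice. Of the other lists, 3 oligodendrocyte genes (31.8 to 41.2 against 21.2 to 28.0 CPM) and 3 neuron genes (1.12 to 1.77 against 0.48 to 0.86 CPM) were lower without overlap in WT ATV:4D9, and 3 monocyte genes were higher in AppSAA ATV:4D9 (9.28 to 12.8 CPM) than in AppSAA ATV:ISO (3.74 to 8.73 CPM) or 4D9 (5.24 to 8.28 CPM). Erythroid genes reached 371 CPM in 1 AppSAA ATV:4D9 mouse. The part of these in the histone results was not tested. Across pools, 543 barcode sequences recurred (1.457% of cells), and none recurred within a pool.

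Most Hist genes are switched on when DNA is copied, and their mRNAs end not in a poly(A) tail but in a short stem-loop that SLBP, the stem-loop binding protein, holds. Variant histones such as H2A.Z and H3.3 have ordinary polyadenylated mRNAs and can be made in cells that do not divide. The library kit primed on poly(A), so what was counted of a Hist gene is the part of its RNA that carried a poly(A) stretch, and several Hist genes are known to make longer polyadenylated transcripts outside S phase.

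In the GENCODE vM21 transcripts on the mm10 (GRCm38) genome, 42 of the 63 Hist genes and H2afx held the 16-base stem-loop. It is printed here in capitals, with up to 5 bases on each side, for 3 genes whose counts rose with ATV:4D9 and then 3 whose counts fell. These were chosen by their direction. Hist1h2ap and Hist1h2bm rose while Hist1h1c and Hist3h2a fell with the same letters, and Hist1h3c and Hist4h4 have other letters.
Hist1h3c: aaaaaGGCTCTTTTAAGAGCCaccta
Hist1h2ap: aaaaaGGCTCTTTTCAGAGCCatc
Hist1h2bm: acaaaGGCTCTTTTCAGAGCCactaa
Hist1h1c: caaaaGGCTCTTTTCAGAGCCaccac
Hist3h2a: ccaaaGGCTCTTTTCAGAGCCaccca
Hist4h4: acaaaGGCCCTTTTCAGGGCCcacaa

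These lie at chr13:23745042-23745067 (minus strand), chr13:21833026-21833049 (minus), chr13:21722501-21722526 (plus), chr13:23739507-23739532 (plus), chr11:58955167-58955192 (plus) and chr6:136803993-136804018 (minus). The annotated transcript ran on for 74, 3 and 46 bases after the stem-loop in the 3 genes that rose, and for 840, 1643 and 2445 bases in the 3 that fell. That split did not hold for all genes. In WT mice Hist1h2bh, with 1214 bases, was called higher, and Hist1h2bf, with 29, lower. The letters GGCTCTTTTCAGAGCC were shared by 24 genes, of which 9 were higher and 9 lower in WT mice given ATV:4D9. The form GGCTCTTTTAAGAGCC was in 6 genes, of which 4 were higher and none lower in the same comparison. Of all genes tested there, 30.8% were higher and 32.5% lower, so the split over the 24 lies near that of all genes and 6 genes are too few to read.

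Hist genes were a small part of the histone UMIs counted, which leave out Hist mRNAs without a poly(A) stretch. H3f3a and H3f3b together gave 3267871 UMIs and the 6 variant H2A genes 1099906, against 425914 for the Hist H1 genes, 163201 for H2B, 147566 for H2A, 84276 for H4 and 34039 for H3. The 8 Hist genes with the most UMIs (Hist1h1c, Hist1h1e, Hist1h2bc, Hist1h1d, Hist1h2ap, Hist1h4d, Hist3h2a and Hist1h2ae) held 77.42% of all Hist UMIs. At the other end, 25 Hist genes averaged under 1 CPM (a gene's UMIs divided by all UMIs of the mouse, times 1000000), and 46 had a UMI in all 20 mice. Many of these genes are near copies: in 20 Hist genes at least 50% of the 60-base words in the last 200 transcript bases also occurred in another gene, so their counts are uncertain, and 26 shared none.

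In WT mice, ATV:4D9 raised more Hist genes than it lowered. Of the 8 most counted, Hist1h1c, Hist1h2bc and Hist3h2a fell and Hist1h2ap and Hist1h2ae rose, while Hist1h1e, Hist1h1d and Hist1h4d were not called. The summed Hist level was lower on average. Over all 63 Hist genes it stood at 1087 CPM (SD 157, n = 4 mice, 931 to 1258) with ATV:ISO and 789 CPM (SD 116, 672 to 937) with ATV:4D9, and in AppSAA mice at 878 CPM (SD 112, 757 to 1014) and 739.7 CPM (SD 122, 557 to 809.9). Read without their pools, the sums overlapped between the 2 treatments in both genotypes, and they were not tested. Of the 60 Hist genes with enough counts to test, 32 were higher, 12 lower and 16 not called (edgeR quasi-likelihood test, Benjamini-Hochberg adjusted p under 0.05 over all genes); among all 14058 genes 30.8% were higher and 32.5% lower. The median log2 fold change was 1.06 over the 60 Hist genes and -0.05 over all genes. Of the 10 variant genes 8 rose, H1f0 fell and H3f3b was not called. In AppSAA mice, ATV:4D9 against ATV:ISO gave a like split, with 29 Hist genes higher, 10 lower and 21 not called (27.9% and 27.1% of all genes), and 7 variant genes higher and 2 lower. The median log2 change of the Hist genes was 0.82. With the pool as a block the members called went from 54 to 57 in WT (35.6% of all genes higher, 39% lower) and from 49 to 53 in AppSAA mice (34.5% and 36.2%). Hist1h2ah, Hist1h3h and Hist1h2ao had too few counts for the test. In these sums over sorted cells, more cells making an mRNA and more mRNA per cell cannot be told apart.

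**Figure D1:**
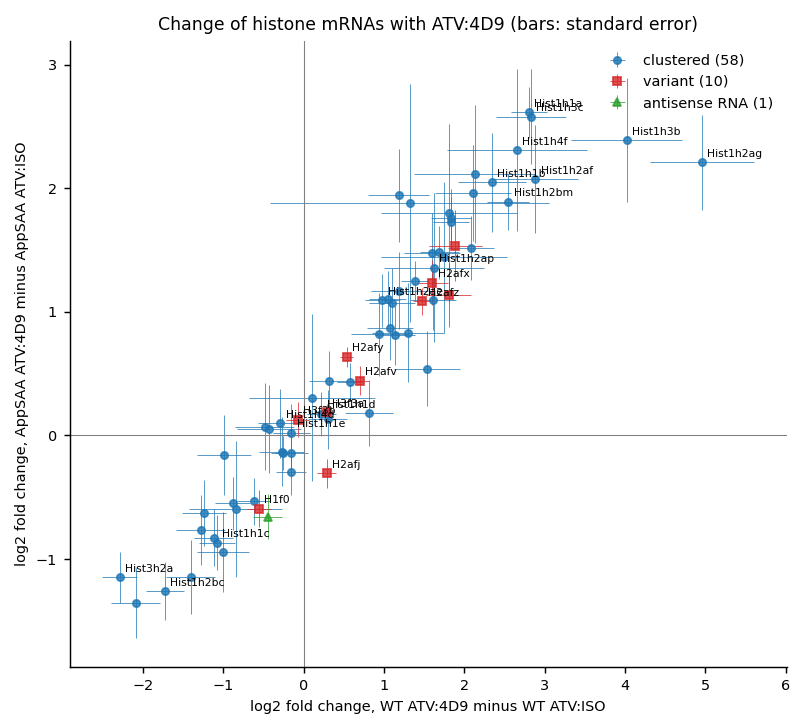
Each point is a histone gene, with its log2 fold change with ATV:4D9 in WT mice on the x axis and in AppSAA mice on the y axis, and bars of 1 standard error; circles are Hist genes, squares variant genes, and the triangle H3f3aos. Hist1h3g and Hist1h4k, at 0 UMIs in every WT ATV:ISO mouse, are left out. Hist3h2a and Hist1h2bc sit at the lower left, Hist1h1a and Hist1h3c at the upper right, and H2afj sits at 0.29 in WT and -0.31 in AppSAA mice.

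The linker histones, which bind the DNA between nucleosomes, divided within their own class. Hist1h1c (H1.2), the most counted Hist gene, stood at 244, 290.1, 259 and 344 CPM in the WT ATV:ISO mice of pools 1 to 4 and at 82.4, 135, 127 and 154 CPM with ATV:4D9. Every treated mouse was below every control. The log2 fold change was -1.08 (SE 0.22, n = 4 mice per group, edgeR adjusted p = 0.00029). In AppSAA mice Hist1h1c stood at 226, 184, 254 and 343 CPM with ATV:ISO and at 73.6, 118, 146 and 192 CPM with ATV:4D9, where the highest treated mouse passed the lowest control. The log2 change there was -0.87 (SE 0.22, edgeR adjusted p = 0.0026).

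Hist1h1a (H1.1) moved the other way: 1.75, 2.10, 1.69 and 1.45 CPM in WT ATV:ISO against 11.2, 13.2, 10.7 and 9.52 with ATV:4D9, with no overlap and a log2 change of 2.80 (SE 0.23, edgeR adjusted p = 1.5e-09). In AppSAA mice it went from 1.16 to 2.11 CPM up to 7.02 to 12.5 CPM, a log2 change of 2.62 (SE 0.21). Hist1h1b (H1.5) stood at 2.45, 11.6, 2.40 and 2.75 CPM in WT ATV:ISO and at 31.3, 16.6, 20.5 and 20.8 CPM with ATV:4D9. The control of pool 2 lay apart from the other three, and all treated mice were higher. The log2 change was 2.34 (SE 0.43) in WT, 3.27 (SE 0.38) without that control, and 2.05 (SE 0.40) in AppSAA mice. Hist1h1d (H1.3) and Hist1h1e (H1.4), both well counted, were not called. Hist1h1e stood at 133 to 312 CPM in WT ATV:ISO and 140 to 242 with ATV:4D9, overlapping widely. The end of Hist1h1e overlaps the start of Hist1h2be on the same strand, and all 60-base words of that end also occur in other annotated genes, so its counts are uncertain. Of the stand-alone linker genes, H1f0 (H1.0, known from cells that have stopped dividing) fell by 0.56 (SE 0.15) in WT and 0.59 (SE 0.15) in AppSAA mice on the log2 scale, while H1fx (H1.10) rose by 1.89 (SE 0.33) and 1.54 (SE 0.29).

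The promoters of Hist1h1a and Hist1h1c are shown because these 2 linker genes lie near each other on chromosome 13 and were called in opposite directions; whether their promoters have a part in that was not tested. The 300 bases from 250 before to 50 after each start are given from RefSeq on GRCm38.p6, with 3 motifs in capitals where they occur on either strand: the CCAAT box, the TATA box in the form TATAAA, and the element AAACACA known from H1 promoters. Hist1h1a lies at chr13:23763418-23763717 and Hist1h1c at chr13:23738557-23738856, both on the plus strand.
Hist1h1a: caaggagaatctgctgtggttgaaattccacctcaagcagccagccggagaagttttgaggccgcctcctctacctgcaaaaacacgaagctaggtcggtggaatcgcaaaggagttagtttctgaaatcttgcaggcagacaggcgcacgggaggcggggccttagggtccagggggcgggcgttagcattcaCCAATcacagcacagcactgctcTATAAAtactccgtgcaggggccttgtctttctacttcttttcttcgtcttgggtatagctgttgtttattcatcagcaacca
Hist1h1c: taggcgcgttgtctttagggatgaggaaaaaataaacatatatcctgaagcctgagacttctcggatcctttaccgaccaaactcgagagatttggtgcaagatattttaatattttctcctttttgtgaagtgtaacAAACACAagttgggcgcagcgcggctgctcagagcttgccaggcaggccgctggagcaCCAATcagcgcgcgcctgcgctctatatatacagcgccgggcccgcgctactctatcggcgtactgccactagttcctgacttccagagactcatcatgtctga

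Hist1h1a held CCAAT and TATAAA but not AAACACA, and Hist1h1c held CCAAT and AAACACA but not TATAAA. Only these exact letters were searched. Hist1h1c has the TATA-like run tatatata, and Hist1h1a has the near match aaacacg. The printed letters thus do not set a promoter with a TATA box against a promoter without it. Over all 32851 promoters of this length in the table, 37.4% held CCAAT, 13.6% TATAAA and 7.18% AAACACA. Of the 59 Hist promoters with an entry, 50 held CCAAT, 33 TATAAA and 7 AAACACA, and 12 held ATTTGCAT, an octamer known from H2B promoters that 1.74% of all promoters held. Of 9 variant promoters, 6 held CCAAT. A match is a description of the letters, and no motif was linked to a direction here.

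Among the H2A genes, Hist3h2a fell furthest and Hist1h2ap was the most counted. Hist3h2a stood at 32.5, 58.4, 60.3 and 63.9 CPM in WT ATV:ISO mice and at 6.55, 11.0, 12.1 and 11.2 CPM with ATV:4D9. The groups were far apart, and the log2 change was -2.29 (SE 0.22, edgeR adjusted p = 1.7e-08). The annotation has Trim17 overlapping Hist3h2a on the same strand, so its counts, too, are uncertain, though none of the 60-base words in its last 200 transcript bases occurred in another gene. In AppSAA mice it stood at 30.0, 35.6, 49.0 and 45.9 CPM with ATV:ISO and at 9.99, 18.1, 20.5 and 21.1 CPM with ATV:4D9, again with no overlap and a log2 change of -1.15 (SE 0.21, edgeR adjusted p = 0.00010). The fall was thus smaller in AppSAA mice: the difference of the effects was 1.14 on the log2 scale (SE 0.29, edgeR adjusted p = 0.016), where 3.79% of all genes were called in that direction. That call was lost without the AppSAA ATV:4D9 mouse of pool 4.

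Hist1h2ap differed more between pools than most members. In the WT ATV:ISO mice of pools 1 to 4 it stood at 19.2, 15.3, 50.9 and 14.8 CPM, and with ATV:4D9 at 71.3, 33.7, 143 and 32.4 CPM. Pool 3 was highest in both groups, and within each pool the treated mouse was higher, by 2.19 to 3.72 times. The log2 change was 1.62 (SE 0.62, edgeR adjusted p = 0.029), a call lost without the treated mouse of pool 3 (1.04) or the control of pool 1, 2 or 4. In the fit with the pool as a block it was 1.55 (SE 0.11, edgeR adjusted p = 3.2e-10). In AppSAA mice the within-pool ratio was 2.07 to 3.22 and the log2 change 1.36 (SE 0.61, edgeR adjusted p = 0.064), called with the pool as a block (1.49, SE 0.10, edgeR adjusted p = 4.8e-10). All 60-base words of its transcript end also occur in other genes, H2A genes among them, so which copy was counted is uncertain. Hist1h2ae shared no such words and rose without that doubt: 16.4, 21.8, 18.4 and 14.3 CPM in WT ATV:ISO against 37.1, 34.3, 36.2 and 21.1 with ATV:4D9. Only the treated mouse of pool 4 fell below the highest control. The log2 change was 0.98 (SE 0.22) in WT and 1.09 (SE 0.21) in AppSAA mice.

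Hist1h2ag was nearly absent in WT mice without ATV:4D9. It had 2 UMIs in 1 WT ATV:ISO mouse (0.071 CPM) and none in the rest. WT mice given ATV:4D9, whose UMI totals were larger, had 43, 58, 36 and 59 UMIs, or 0.60 to 0.92 CPM (edgeR adjusted p = 1.5e-06). In AppSAA mice it stood at 0.05 to 0.21 CPM with ATV:ISO and 0.51 to 0.69 CPM with ATV:4D9, without overlap.

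Among the H2B genes, Hist1h2bc was the most counted and fell. It stood at 179.5, 180.4, 187 and 290.1 CPM in WT ATV:ISO and at 38.9, 66.2, 63.7 and 64.9 CPM with ATV:4D9, far below every control. The log2 change was -1.73 (SE 0.24, edgeR adjusted p = 2.9e-06) in WT and -1.26 (SE 0.24, edgeR adjusted p = 0.00015) in AppSAA mice, where the groups overlapped (82.4 to 218 CPM against 42.3 to 88.2). Hist1h2bm, chosen after its values were seen, rose from 0.23 to 0.83 CPM up to 2.71 to 4.15 CPM in WT mice, a log2 change of 2.55 (SE 0.26). Over the H2B class, 9 of 16 genes were higher and 4 lower in WT and 8 higher and 3 lower in AppSAA mice. For H2A the counts were 9 higher and 2 lower of 14 in each genotype. Of all genes 30.8% were higher and 32.5% lower in WT and 27.9% and 27.1% in AppSAA mice.

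The H3 and H4 genes encode histones of the nucleosome core, as the H2A and H2B genes do. Of 11 H3 genes 7 rose and 3 fell in WT mice, and of 13 H4 genes 5 rose and 2 fell, beside 30.8% and 32.5% of all genes. Hist1h3c went from 0.23, 2.34, 1.02 and 0.95 CPM in WT ATV:ISO to 6.41, 10.2, 7.42 and 6.30 CPM with ATV:4D9, without overlap and with a log2 change of 2.83 (SE 0.43, edgeR adjusted p = 1.0e-05), or 3.43 (SE 0.47) without the pool 2 control. In AppSAA mice the change was 2.58 (SE 0.38). Hist1h3b rose from 0 to 0.26 CPM up to 0.92 to 3.01 CPM in WT mice, and its log2 change in AppSAA mice was 2.39 (SE 0.50), or 3.17 (SE 0.58) without the pool 3 control. Hist2h3c2 went the other way: 1.92, 3.03, 1.18 and 5.02 CPM against 0.46, 0.59, 0.65 and 0.76 CPM in WT mice, a log2 change of -2.09 (SE 0.30), and -1.36 (SE 0.28) in AppSAA mice. Hist1h3g and Hist1h4k had no UMI in any WT ATV:ISO mouse and a UMI in all 4 WT mice given ATV:4D9, with 86 and 77 UMIs over the group. Against a floor of 3 counts over the control group this was at least 9.21-fold and 8.24-fold higher. Hist1h4d, the most counted H4 gene, was not called in either genotype (-0.29, SE 0.28, in WT); with the pool as a block it was lower in WT mice by the same size (edgeR adjusted p = 0.00024). Its pool 2 mouse was the highest of the 4 in every group.

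Among other genes that fell in both genotypes, named after their values were seen, Hist4h4 changed by -1.40 (SE 0.31) and -1.15 (SE 0.30) and Hist1h2ac by -1.01 (SE 0.33) and -0.95 (SE 0.32) on the log2 scale. The AppSAA call of Hist1h2ac was lost without the ATV:4D9 mouse of pool 2 (-0.71) or the ATV:ISO mouse of pool 4 (-0.76). Hist1h2ac and Hist1h2bc are a divergent pair, with 250 bases between their starts, and both fell in both genotypes. Of 10 such pairs, Hist2h2ac with Hist2h2be, Hist1h2ak with Hist1h2bn and Hist1h2ag with Hist1h2bj rose together in both genotypes; the AppSAA call of Hist2h2be was lost on leaving out 2 single mice in turn. Hist1h2ae rose in both while its partner Hist1h2bg was not called (-0.26 in WT and -0.14 in AppSAA mice). With the pool as a block Hist1h2bg was lower in WT mice (-0.26, SE 0.11, edgeR adjusted p = 0.040), so that this pair then went apart.

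**Figure D2:**
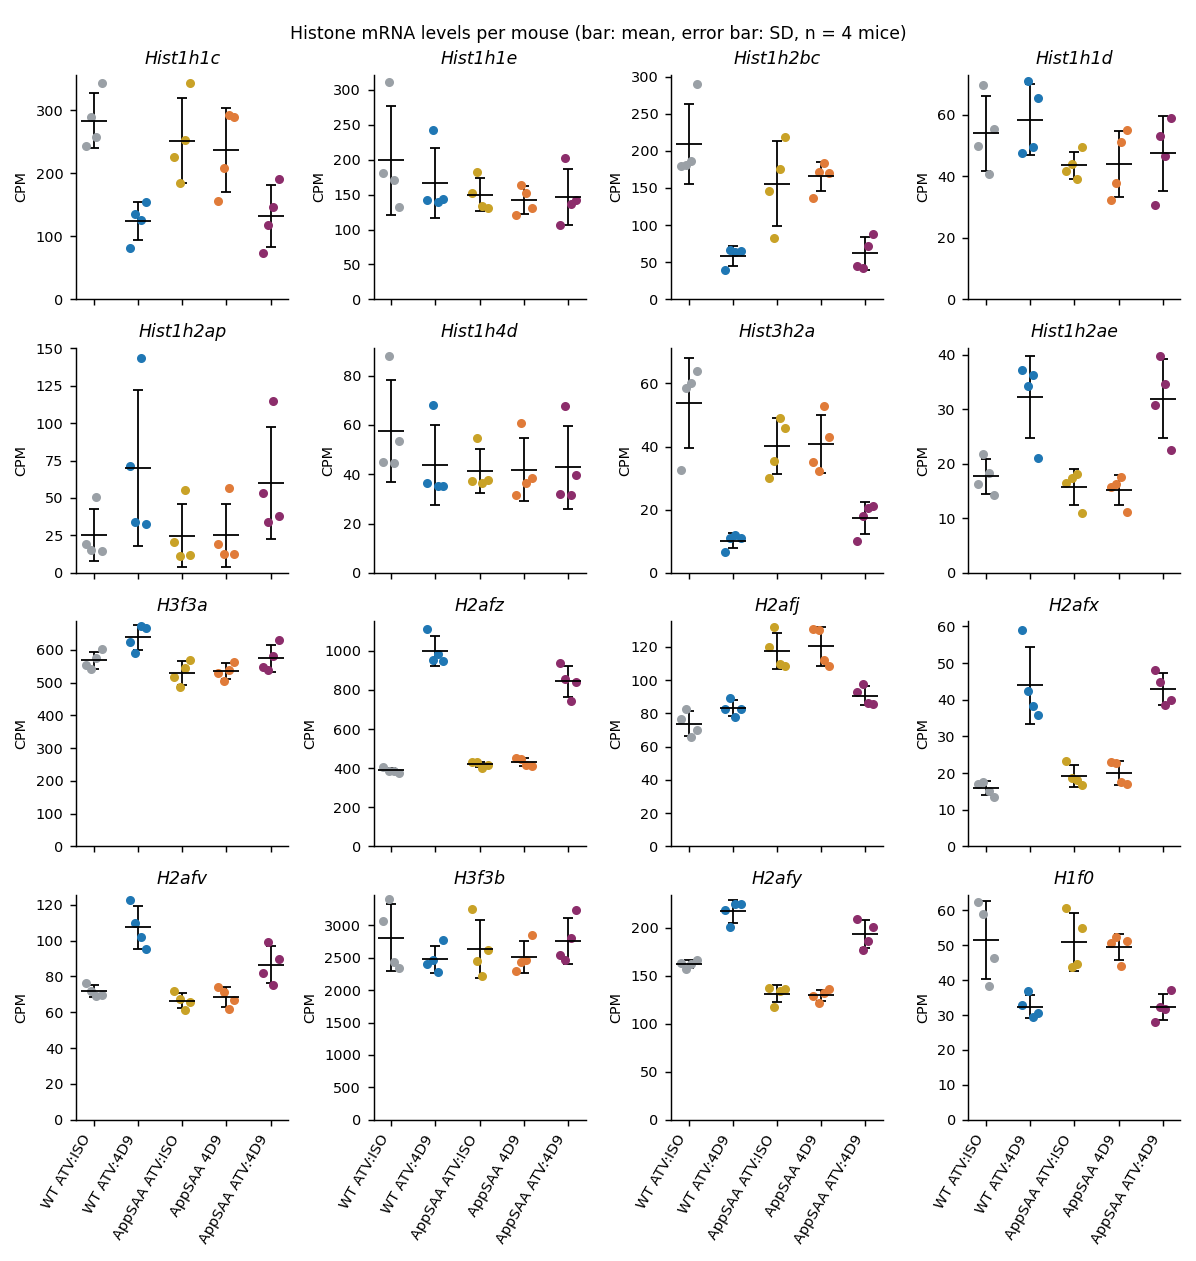
CPM of the 8 most counted Hist genes and the 8 variant genes with at least 5 CPM, with 1 point per mouse, the mean as a long bar and the SD as error bars (n = 4), for the 5 groups on the x axis. Hist1h1c, Hist1h2bc, Hist3h2a and H1f0 are low and H2afz, H2afx, H2afv and H2afy high in the 2 groups given ATV:4D9, while AppSAA 4D9 lies with AppSAA ATV:ISO.

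The variant genes split as well. H2afz (H2A.Z, placed at promoters) stood at 408, 386, 387 and 378 CPM in WT ATV:ISO and at 1114, 952, 983 and 948 CPM with ATV:4D9. The groups were far apart, and the log2 change was 1.48 (SE 0.11, edgeR adjusted p = 5.0e-10). In AppSAA mice it went from 401 to 432 CPM up to 742 to 938 CPM, a log2 change of 1.08 (SE 0.11). H2afx (H2A.X, phosphorylated at DNA breaks, with both a stem-loop and a polyadenylated form) rose by 1.60 (SE 0.19) and 1.24 (SE 0.18) in WT and AppSAA mice. H2afv, a near relative of H2A.Z, rose by 0.70 (SE 0.12) and 0.44 (SE 0.11). The macroH2A genes, linked to silent chromatin, rose too: H2afy by 0.54 (SE 0.08) and 0.64 (SE 0.08), and the lowly counted H2afy2 by 1.81 (SE 0.28) and 1.14 (SE 0.26).

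The H3.3 genes moved little for their level. H3f3b, the most counted histone gene, stood at 3062, 3409, 2426 and 2342 CPM in WT ATV:ISO and at 2397, 2462, 2279 and 2767 CPM with ATV:4D9, overlapping throughout (log2 change -0.07, SE 0.14). H3f3a, which encodes the same protein, changed by 0.29 (SE 0.07, edgeR adjusted p = 0.00083) in WT and 0.19 (SE 0.07, edgeR adjusted p = 0.021, lost on leaving out 3 single mice in turn) in AppSAA mice, with overlapping CPM in both. Within every pool the treated mouse was higher in both genotypes, and both calls stood with the pool as a block. H3f3aos, at 0.65 to 2.72 CPM, was lower with ATV:4D9 in both genotypes (log2 change -0.45, SE 0.18, and -0.66, SE 0.18). The WT call was lost on leaving out 7 of the 20 mice in turn, among them every WT ATV:4D9 mouse. Whether the counting told its strand from that of H3f3a is not given in the sources used here.

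H2afj (H2A.J, a variant described in senescent cells) was the only member called in opposite directions in the 2 genotypes. It stood at 76.4, 82.7, 65.8 and 70.04 CPM in WT ATV:ISO and at 82.7, 89.4, 77.7 and 82.8 CPM with ATV:4D9, higher in 4 of 4 pools, with overlapping groups and a log2 change of 0.29 (SE 0.12, edgeR adjusted p = 0.042). In AppSAA mice it stood at 119.9, 132, 109.7 and 108 CPM with ATV:ISO and at 93.0, 97.7, 86.3 and 85.6 CPM with ATV:4D9, lower in 4 of 4 pools without overlap (log2 change -0.31, SE 0.12, edgeR adjusted p = 0.033). The difference of the effects was -0.59 (SE 0.17, edgeR adjusted p = 0.029). The 3 calls were lost on leaving out 5, 4 and 7 single mice in turn, the AppSAA call also without the count filter, and each stood with the pool as a block.

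AppSAA against WT mice given ATV:ISO, where age and sex may differ as well as genotype, called few members: 3 Hist genes higher, none lower and 57 not called, and 2 variants higher, against 14.4% and 13.7% of all genes. The main one was H2afj, 65.8 to 82.7 CPM in WT and 108 to 132 CPM in AppSAA mice without overlap, a log2 change of 0.86 (SE 0.12, edgeR adjusted p = 1.5e-05). H2afz changed by 0.29 (SE 0.11, edgeR adjusted p = 0.049), a call lost on leaving out 13 of the 20 mice in turn. Hist1h4k, Hist1h2ag and Hist1h4j were the Hist genes called, all under 0.4 CPM in either group; Hist1h4k was at least 3.10-fold higher. H3f3aos was lower (-0.54, SE 0.19). The calls of Hist1h4j, Hist1h2ag and H3f3aos were each lost on leaving out 5 mice in turn, all of them from the 2 groups compared. That of Hist1h4k was lost on leaving out the WT mouse of pool 4. With the pool as a block 14 members were called, 7 higher and 7 lower, against 21.5% and 29.4% of all genes; those added included H2afx (0.46, SE 0.08) higher and Hist1h4d (-0.26, SE 0.06) and Hist1h3d (-0.59, SE 0.18) lower. Hist1h1c, Hist1h2bc and Hist3h2a were not called between genotypes in either fit.

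No member was called between the unvectored antibody 4D9 and ATV:ISO in AppSAA mice, which does not show equal levels. No gene of the 14058 passed the edgeR test (0% higher and 0% lower), 79 genes had an unadjusted p under 0.05, and DESeq2 called 1 gene. Hist3h2a stood at 35.1, 32.4, 52.9 and 43.1 CPM with 4D9, within the span of the ATV:ISO mice but for the top one. Members that went one way in all 4 pools were named after their values were seen. Hist1h2bn was 1.35 to 2.18 times and Hist1h4b 1.29 to 1.91 times as high with 4D9. Hist1h2ak was 1.07 to 2.08 times, H2afv 1.01 to 1.06 times and Hist1h4j 0.604 to 0.872 times as high. The Hist genes among these had group means of only 0.138 CPM (Hist1h4b, ATV:ISO) to 0.709 CPM (Hist1h2ak, 4D9). How many of all genes went one way in all 4 pools was not counted, so these ratios are not evidence of an effect of 4D9. Against 4D9, ATV:4D9 raised 30 Hist and 7 variant genes and lowered 10 and 2 (27.6% and 26.7% of all genes). The pool as a block took the members called from 50 to 54 (34.2% of all genes higher, 35.6% lower). Hist1h1a differed by 2.21 (SE 0.20), Hist1h3c by 2.74 (SE 0.40), H2afz by 1.03 (SE 0.11), Hist1h2bc by -1.37 (SE 0.24) and Hist3h2a by -1.18 (SE 0.21) on the log2 scale. This comparison and the one against ATV:ISO share the ATV:4D9 mice. The rise of Hist1h2bl there (log2 3.48, SE 1.20) came from 1 mouse with 191 UMIs, and it was not called without that mouse.

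Between genotypes under ATV:4D9, 1 Hist gene was higher (7.84% of all genes) and 1 variant lower (3.98%): Hist3h2a by 0.90 (SE 0.21) and H2afy2 by -0.80 (SE 0.23, a call lost without the AppSAA mouse of pool 3 or the WT mouse of pool 2) on the log2 scale, beside H3f3aos at -0.75 (SE 0.18). In the fit with the pool as a block 7 members were called, 4 higher and 3 lower, against 17% and 14.4% of all genes. For the difference of the ATV:4D9 effects, Hist3h2a and H2afj were the 2 called (3.79% of all genes higher, 5.35% lower), and with the pool as a block 10 were called, 3 higher and 7 lower (16.9% and 13.6%). Those 7 held H2afj (-0.60), H2afz (-0.40), H2afx (-0.34) and H2afv (-0.25). In that fit the rises of H2afz, H2afx and H2afv were thus smaller in AppSAA mice, while H2afj rose in WT and fell in AppSAA mice.

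Genes of the machinery that makes and places histones were followed in lists beside them. SLBP, with the other genes for transcribing and cutting Hist mRNAs, formed a list of 18: in WT mice 9 were higher and 3 lower with ATV:4D9, and in AppSAA mice 10 and 3. These counts and those of the next lists stand beside 30.8% of all genes higher and 32.5% lower in WT, and 27.9% and 27.1% in AppSAA mice. Slbp rose by 1.54 (SE 0.11) and 1.37 (SE 0.10), Eri1, an exonuclease that trims the mRNA end, by 1.37 (SE 0.08) and 1.01 (SE 0.08), and Casp8ap2 (FLASH, a processing factor) by 1.18 (SE 0.07) and 1.02 (SE 0.07) on the log2 scale. Of 26 chaperone and assembly genes 20 were higher and 4 lower in WT and 20 and 1 in AppSAA mice. They were led by the CAF-1 subunits, which load H3 and H4 onto new DNA: Chaf1a rose by 4.52 (SE 0.12) and Chaf1b by 4.47 (SE 0.17) in WT mice. All 24 S phase genes (Slbp is on both lists) and all 20 G2 and M phase genes tested were higher in both genotypes. Ccne1, a cyclin of S phase entry, rose by 4.85 (SE 0.19) and Top2a by 3.91 (SE 0.21) in WT mice. The median log2 change in WT mice was 3.60 over the S phase list, 3.34 over the G2 and M phase list and 1.06 over the Hist genes.

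Where the UMIs lay within the deposited clusters was uneven. The cells came with a coarser clustering (resolution 0.2, 6 clusters) and a finer one (resolution 0.4, 9 clusters), both made from expression of the same cells, so levels per cluster are described without a test. Coarser cluster 4 had the most S phase and G2 and M phase UMIs and held 40.0% of cells (SD 4.45, n = 4 mice) in WT and 22.4% (SD 3.33) in AppSAA mice given ATV:4D9, against 0.35%, 0.95% and 1.27% in WT ATV:ISO, AppSAA ATV:ISO and AppSAA 4D9. In the mice given ATV:4D9 it held 35.8% of all UMIs. Of the same mice's UMIs it held 95.2% for Hist1h3c, 93.8% for Hist1h1b, 90.1% for Hist1h2ap and 85.9% for Hist1h2ae. For variants the share was 80.0% for H2afx, 63.7% for H2afv, 59.8% for H2afz and 34.6% for H3f3b. Of the 12 Hist genes that fell in WT mice, the share was from 19.0% for Hist3h2a, 26.5% for Hist1h2bc and 30.1% for Hist1h1c up to 55.9% for Hist1h3d and 72.7% for Hist1h2bf, the highest being named after their values were seen.

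**Figure D3:**
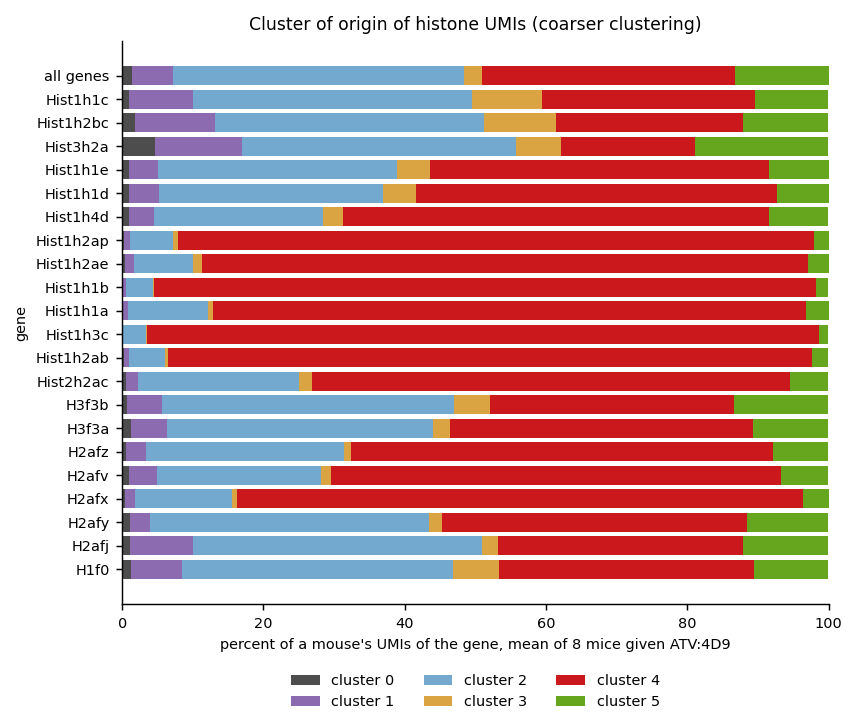
For 21 histone genes and for all genes, stacked bars give the percent of a mouse's UMIs that came from each of the 6 coarser clusters, averaged over the 8 mice given ATV:4D9. Cluster 4 takes 35.8% of all UMIs but 95.2% of those of Hist1h3c and 19.0% of those of Hist3h2a.

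The finer clusters drew cycling cells apart. Finer cluster 7 carried the G2 and M phase genes (4859 CPM summed) and the highest Hist level, 2933 CPM (SD 647, n = 16 mice with at least 20 cells). In it Hist1h2ap stood at 483 CPM, Hist1h2ae at 271 and Hist1h1b at 234, against at most 40.1, 20.6 and 15.6 CPM in any other cluster. Finer cluster 4 had the highest S phase sum (3685 CPM, SD 89.3), and finer cluster 7 came next (2844 CPM, SD 1202), so cluster 7 was high for both lists. Finer cluster 4 held 33.5% of cells in WT and 15.96% in AppSAA mice given ATV:4D9. Its Hist level was 605 CPM (SD 93.9, n = 8 mice). There Hist1h2ap was at 40.1 CPM and H2afz at 1175 CPM, and Hist3h2a and Hist1h2bc were at their lowest, 4.81 and 31.1 CPM. The means of finer cluster 7 cover AppSAA ATV:ISO and AppSAA 4D9 mice as well, while those of finer cluster 4 cover only mice given ATV:4D9. In the 4 WT mice given ATV:4D9 alone, the Hist level was 2474 CPM (SD 306) in cluster 7 and 596 CPM (SD 111) in cluster 4, and Hist1h2ae stood at 204 CPM (SD 40.5) and 15.7 CPM (SD 4.84).

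Finer cluster 2 was the other high point, with 1761 CPM (SD 284, n = 20 mice) over all Hist genes. It held 36.9% of cells in WT ATV:ISO and 3.24% in WT ATV:4D9, with Hist1h1c at 594 CPM, Hist1h2bc at 311 CPM and H3f3b at 5138 CPM, above every other finer cluster. It also had the highest level of 8 immediate early genes, a list chosen after seeing the data: 20930 CPM (SD 2380) against 834 to 8772 CPM in the other finer clusters. These genes are known to rise when cells are stressed during isolation. Over whole groups they stood at 9727 CPM (SD 880) in WT ATV:ISO and 7347 CPM (SD 857) in WT ATV:4D9, so they moved in the direction of Hist1h1c and Hist1h2bc; their part in the fall of those genes was not tested. H2afj was highest in finer clusters 6 (182 CPM) and 8 (171 CPM), and finer cluster 6 held 7.80% of cells in AppSAA ATV:ISO, 2.55% in AppSAA ATV:4D9 and under 0.2% in both WT groups. Finer cluster 8 went the other way, with 3.62% in AppSAA ATV:ISO and 5% in AppSAA ATV:4D9, and 0.44% and 2.68% in the WT groups. Next came finer clusters 7 (132.5 CPM) and 3 (123.5 CPM). In the same AppSAA groups cluster 7 held 0.81% and 7.27% of cells and cluster 3 27.63% and 10.25%. The part of these shares in the H2afj changes was not tested.

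**Figure D4:**
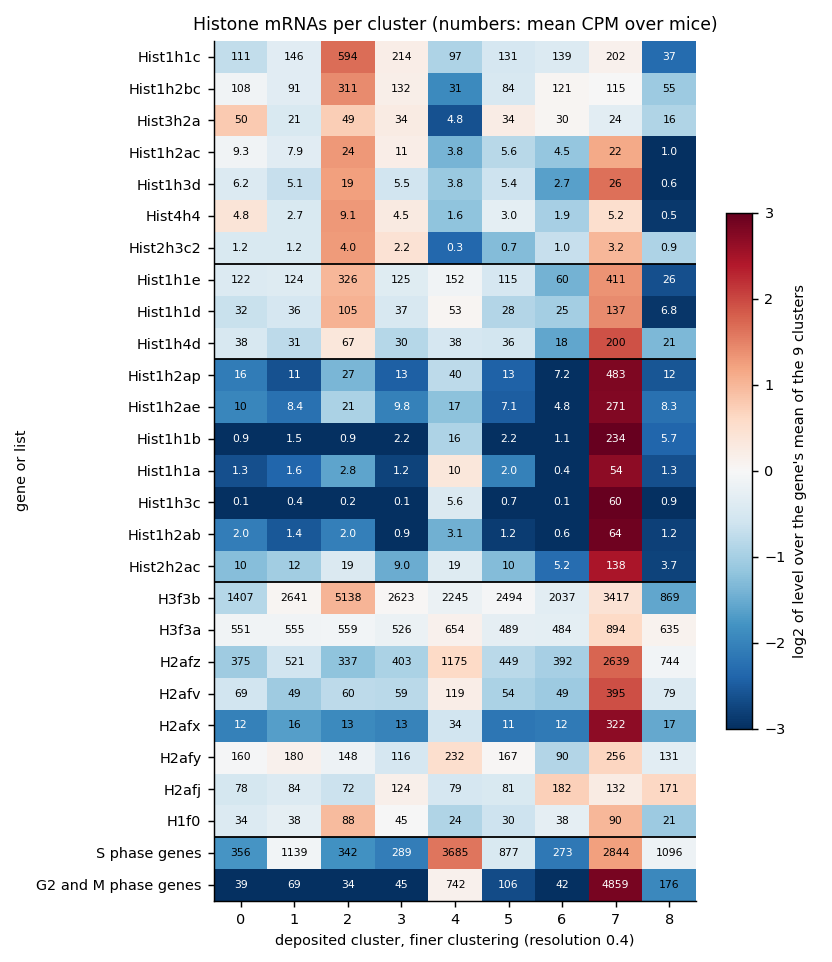
Rows are histone genes and 2 cell cycle lists, columns the 9 finer clusters; the printed numbers are mean CPM over mice and the colour is the log2 of the level over the gene's mean of the clusters. Black lines part genes that fell with ATV:4D9, genes not called, genes that rose, variants and lists. Hist1h2ap, Hist1h1b and H2afx peak in cluster 7, and Hist1h1c, Hist1h2bc and H3f3b in cluster 2.

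Within clusters, fewer members passed the test, but these sums rested on fewer cells. In coarser clusters 0 and 3 each WT ATV:4D9 mouse gave 164 to 428 cells and each WT ATV:ISO mouse 2109 to 2875. In AppSAA mice the numbers were 105 to 419 with ATV:4D9 and 1900 to 3378 with ATV:ISO. Fewer calls there do not show fewer changes. In the summed cells of coarser clusters 0 and 3 (the clusters that dominated WT ATV:ISO), WT ATV:4D9 against WT ATV:ISO called 3 of 33 Hist genes and 1 of 8 variants, all higher (4.16% of all genes higher, 1.85% lower). They were Hist1h1a (1.33, SE 0.35), Hist1h3a (1.07, SE 0.22), Hist1h1d (0.69, SE 0.16) and H3f3b (0.53, SE 0.13) on the log2 scale. Hist1h1d (0.61, SE 0.14) and H3f3b (0.53, SE 0.14) were also called in AppSAA mice (2.91% higher, 0.703% lower). There neither was called without the ATV:4D9 mouse of pool 3 or 4 or the ATV:ISO mouse of pool 3. The H3f3b call was lost on leaving out 6 single mice in turn, these 3 among them. In WT mice 2 to 9 members were called on leaving out single mice, with the Hist1h1a call lost on 6 such omissions, that of H3f3b on 5 and that of Hist1h1d on 2. Hist1h1c (0.46, SE 0.17) and Hist1h2bc (0.00, SE 0.18) were not called there in WT mice, against changes of -1.08 and -1.73 over all cells; the difference between these fits was not tested. The share of cluster 3 among these cells was 37.2% in WT ATV:ISO and 60.04% in WT ATV:4D9, and 44.8% and 62.1% in AppSAA mice. H3f3b stood at 1412 CPM in cluster 0 and 4656 CPM in cluster 3 in WT ATV:ISO, against 1298 and 5160 CPM with ATV:4D9, so the mixture moved with its call. Averaged over all 20 mice, Hist1h1c stood at 113 CPM in cluster 0 and 537 CPM in cluster 3. Hist1h2bc stood at 110 and 283 CPM, Hist1h1d at 33.3 and 90.5, and Hist1h1a at 1.05 and 2.33. Hist1h3a stood at 3.28 and 5.38 CPM, and Hist3h2a at 52.0 and 45.9. All of these but Hist3h2a were higher in cluster 3, whose share grew. The part of the mixture in any of these changes was not tested. With the pool as a block 16 members were called in WT (14 higher and 2 lower; 11.7% and 9.04%) and 8 in AppSAA mice (all higher; 9.27% and 5.41%), among them Hist1h1c (0.42, SE 0.10) higher and Hist3h2a (-0.57, SE 0.11) lower in WT mice.

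Within coarser cluster 4, AppSAA against WT mice given ATV:4D9 called Hist1h1b alone (0.84, SE 0.19, edgeR adjusted p = 0.032; 2.32% of all genes higher, 0.213% lower), lost on leaving out 5 of the 8 mice in turn. With the pool as a block 22 members were called, all higher, against 9.62% of all genes higher and 5.98% lower, among them Hist1h1b (0.85), Hist1h2ae (0.71), Hist1h3c (0.69), H2afx (0.67) and Hist1h2ap (0.59). In this cluster 13 of the 20 G2 and M phase genes were higher and none of the 24 S phase genes was called, so its G2 and M part moved with these genes; that part was not tested. In cluster 1, AppSAA ATV:4D9 against ATV:ISO called no member (1.05% and 0.511% of all genes; 4 with the block, against 6.33% and 4.86%). In cluster 2, AppSAA against WT mice given ATV:4D9 called none either (1.72% and 0.134%; 2 with the block, Hist1h2ap higher and H3f3aos lower, against 7.38% and 4.56%).

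Per cell, the direction of the Hist counts depended on depth. Unthinned, the mean number of Hist UMIs per cell was 9.56 in WT ATV:ISO and 13.03 in WT ATV:4D9, and 10.5 and 12.6 in AppSAA mice; thinned to 5000 UMIs per cell it was 5.44 and 4.00, and 4.88 and 3.76. With each cell thinned to 5000 UMIs, 91.5% of cells (SD 2.29, n = 4 mice) in WT ATV:ISO and 79.2% (SD 4.14) in WT ATV:4D9 held a Hist UMI, with no overlap between mice. The AppSAA groups held 86.8% (SD 1.36) with ATV:ISO, 87.0% (SD 3.05) with 4D9 and 78.8% (SD 5.79) with ATV:4D9. Unthinned, the shares were 94.7% and 93.4% in the WT groups. Thinning left out 1084 and 402 shallower cells in the WT groups and 1275, 961 and 587 in the AppSAA groups. No cell type lacking these genes was present to set a background for free RNA.

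The annotated length of the transcript past the stop codon differed between Hist genes that rose and fell, a split noticed after the values were seen. The 32 that rose in WT mice had a median of 76 annotated bases past the stop codon, and 10 of them had over 100. The 12 that fell had a median of 1046, and 11 had over 100, Hist1h2bf with 74 being the exception. The 16 not called had a median of 101. In AppSAA mice the medians were 74 bases for 29 genes that rose, 1262 for 10 that fell and 109 for the rest. Level moved with it: the genes that rose had a median of 1.42 CPM and those that fell 6.80 CPM in the WT comparison. In 11 Hist genes no base past the stop codon was annotated, so a short value can mean a short annotation.

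**Figure D5:**
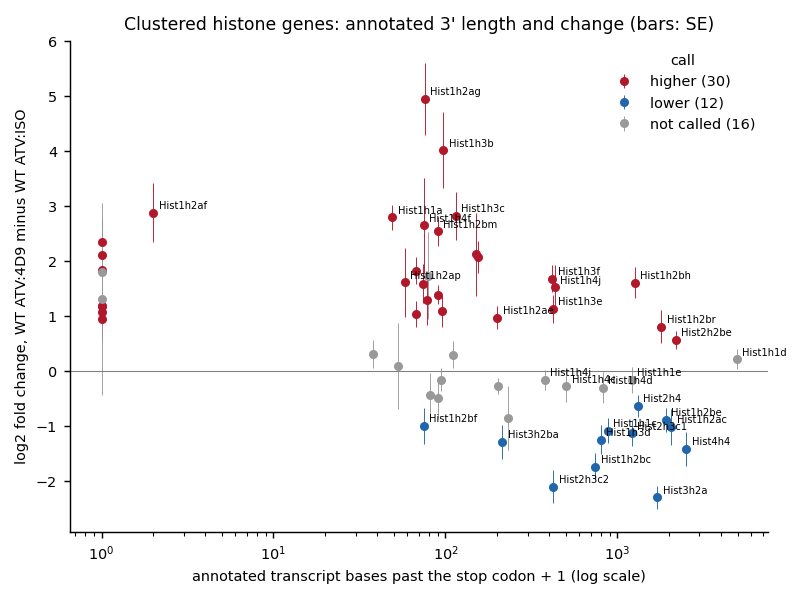
Each point is a Hist gene: the x axis gives annotated transcript bases past the stop codon plus 1 on a log scale, the y axis the log2 fold change of WT ATV:4D9 against WT ATV:ISO with its standard error, and the colour the call. Genes called lower lie to the right, from 74 to 2515 bases, and most called higher lie to the left, with Hist1h2bh, Hist1h2br and Hist2h2be as exceptions at 1258, 1803 and 2192 bases.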

How the data were processed

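Single-cell RNA-seq was made from sorted microglia in 4 pools (10x 3′ libraries with cell multiplexing). The authors aligned and counted reads with Cell Ranger 6.1.1 on mm10, per the labels, assigned cells to mice, and integrated and clustered the cells in Seurat; the deposited matrix holds raw UMI counts per gene and cell, with the mouse's group and the clusters in a deposited cell table. Doublet removal beyond the authors' filtering was not added. Clusters were used as deposited. The deposited cell table also gives the percent of mitochondrial UMIs, computed by the authors and not used in a comparison.

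For each mouse the counts of its cells were added up, over all cells or within 1 cluster if it held 20 cells or more there, and tested with edgeR 4.0.16 in R 4.3.3 (quasi-likelihood test, filterByExpr, TMM, Benjamini-Hochberg over all genes tested, adjusted p under 0.05), with all 20 mice in 1 fit for whole-mouse sums and the groups compared alone within clusters. Fold changes are from TMM-scaled counts and can differ from ratios of CPM. Each SE was worked back from the edgeR test, as the size of the log2 fold change over the square root of the F statistic. Totals of 17150296 to 102446549 UMIs per mouse set the precision, and floors cover counting error only. Nothing states whether mice were littermates. Unless the pool is named as a block, p-values measure the spread between mice of a group with their pools ignored. Alternatives were RLE factors, no filter, DESeq2 1.42.0, limma 3.58.1 (voom), the pool as a replicate block, leaving out each mouse, and sums of at least 50 cells. Mice of 1 pool deviated together: residual correlations of 40 same-pool pairs were 0.143 to 0.607, all over 0.1, so the pools pair the mice. The fits without a block leave this pairing out, and the fit with the pool as a block takes it in. Scripts were tested on simulated data.

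The members and gene lists were chosen with earlier results of these data known. Named members are the 8 Hist genes with the most UMIs, variants with at least 5 CPM, and per comparison the 3 largest called rises and falls; others are named as exceptions. From each further list the 3 called genes with the largest change could be named. Stem-loops, transcript ends and gene positions come from GENCODE vM21, which holds 91 genes matching the symbol rule, 74 of them in the table. Promoters come from RefSeq (GRCm38.p6), where 73 members had a name and 67 a promoter. No protein sequences were used.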

Additional observations from a re-analysis of the deposited data

Results flagged for a closer look

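In 16 of 150 groups of 4 mice, a named member's highest or lowest mouse stood apart from the other three by Dixon's test; chance gives about 1 in 20. Several were mice of the same pool. Pool 3 held the high Hist1h2ap mice of WT ATV:ISO (50.9 CPM) and AppSAA 4D9 (56.5 CPM) and the high Hist1h3b mouse of AppSAA ATV:4D9 (2.25 CPM). Hist1h2ap was highest in pool 3 in all 5 groups, by 2.75 to 3.86 times over the mean of the other pools. Pool 2 held the high Hist1h4d mice of WT ATV:4D9 (67.9 CPM) and AppSAA ATV:ISO (54.9 CPM), the high Hist1h1e mouse of WT ATV:4D9 (242 CPM), the high Hist1h3c mouse (13.7 CPM) and the high Hist1h4k mouse (0.41 CPM) of AppSAA ATV:4D9, the high Hist1h1b mouse of WT ATV:ISO (11.6 CPM), the low H2afy mouse of AppSAA ATV:ISO (118 CPM), and the high Hist1h2bl mice of AppSAA ATV:ISO (0.79 CPM) and AppSAA ATV:4D9 (3.26 CPM). The rest were the high Hist1h2bc mouse of WT ATV:ISO (290.1 CPM, pool 4), the low one of WT ATV:4D9 (38.9 CPM, pool 1), the only WT ATV:ISO mouse with Hist1h2ag (0.071 CPM, pool 4) and the low H3f3aos mouse of WT ATV:4D9 (1.27 CPM, pool 1).

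The ATV:4D9 effect differed between genotypes by the test of the difference itself for Hist3h2a (1.14 on the log2 scale, AppSAA minus WT) and H2afj (-0.59).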

How the results depend on the processing

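When each mouse was left out in turn, 49 to 55 members were called for ATV:4D9 against ATV:ISO in WT and 43 to 51 in AppSAA mice, against 54 and 49 with all mice, and 45 to 50 for ATV:4D9 against 4D9, against 50. Over all named members, comparisons and alternatives, 4329 values were recomputed: 4172 stayed on their side of the threshold, 102 lost a call and 55 gained one, and the 1516 values of called changes all kept their direction. The starting values include uncalled ones, with 64 called. Many alternatives left out a mouse of neither compared group, which can move a value little. The tally is thus no measure of how firm the calls are. With the pool as replicate block the called members went from 6 to 14 for AppSAA against WT with ATV:ISO, 3 to 7 with ATV:4D9, 2 to 10 for the difference of effects, 4 to 16 and 2 to 8 within clusters 0 and 3 (WT and AppSAA), 0 to 4 in cluster 1, 0 to 2 in cluster 2 and 1 to 22 in cluster 4; in the other comparisons the block moved the count by less than 1.5 times. Without the count filter 7 were called in clusters 0 and 3 in WT mice and 2 in cluster 4, and limma-voom called 2 in cluster 4. Leaving out single mice gave 2 to 7 for AppSAA against WT with ATV:ISO, 1 to 4 for the difference of effects, 2 to 9 and 0 to 2 in clusters 0 and 3 (WT and AppSAA), and 0 to 3 in cluster 4. H3f3a, ATV:4D9 against 4D9, lost its call with RLE factors or no filter. The share of cells with a Hist UMI, averaged over groups, was 84.7% at 5000 UMIs per cell, 69.1% at 2500 and 94.1% unthinned. The cause of these moves was not tested. For 25 Hist genes under 1 CPM depth limits the test, and a missing call there does not show equal levels.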
